A study of Homo sapiens with 414 samples.

Results

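The replication-dependent histone genes and SLBP, the protein that binds the end of their mRNAs, were followed in single LNCaP cells. Members were the protein-coding genes H1-1 to H1-5, every gene whose symbol starts with H2AC, H2BC, H3C or H4C followed by a digit, and SLBP. The rule found 60 members among the 36135 genes of the table: 5 H1, 15 H2A, 17 H2B, 10 H3 and 12 H4 genes, and SLBP. Of the 59 histone genes, 44 lie on chromosome 6, 13 on chromosome 1, and 1 each on chromosomes 12 and 21. LNCaP is an androgen-responsive epithelial line from a human prostate carcinoma. Cells were transfected with a non-targeting siRNA supplied by Dharmacon (control) or with an siRNA against SULT2B1, a sterol sulfotransferase, supplied by IDT (knockdown), so the choice of supplier and the target cannot be told apart. They were taken 48 h later and captured one by one on a Fluidigm C1 plate for large cells, and both arms were run in each of 3 batches. The analysis used 209 control cells, of which 76, 66 and 67 came from batches 1, 2 and 3, and 192 knockdown cells, of which 66, 65 and 61 did.

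Core histones H2A, H2B, H3 and H4 form the protein spool that DNA is wound on, and H1 sits on the DNA between spools. Their replication-dependent genes are transcribed mainly in S phase, when new DNA has to be packed, and most of their mRNAs end in a short stem-loop in place of a poly(A) tail. SLBP binds that stem-loop, and together with the U7 small nuclear RNA it directs the cut that makes the end. It also travels with the mRNA to the ribosome. Some of these genes can also give longer, polyadenylated mRNAs that run past the stem-loop. Single-cell kits of this kind usually copy RNA from a primer of T bases that pairs with poly(A) tails. The labels do not give the primer, and the share of tailless histone mRNA that was copied was not measured.

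The stem-loop is the sequence that ties these genes to SLBP, so it is shown for histone genes the results turn on. Each line gives the 16 bases of the stem-loop in capitals with 5 bases on either side, 5′ to 3′ on the transcript, from GENCODE 29 on GRCh38.
H2AC6, chr6:26124669-26124684, plus strand: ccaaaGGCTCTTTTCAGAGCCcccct
H2BC5, chr6:26158587-26158602, plus strand: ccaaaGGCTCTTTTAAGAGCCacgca
H2BC4, chr6:26123472-26123487, minus strand: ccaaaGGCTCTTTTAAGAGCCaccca
H2BC21, chr1:149886188-149886203, minus strand: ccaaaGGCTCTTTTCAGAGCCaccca
H3C10, chr6:27810516-27810531, plus strand: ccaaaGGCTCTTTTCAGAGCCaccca
H4C8, chr6:26285131-26285146, minus strand: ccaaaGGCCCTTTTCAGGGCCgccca
H4C5, chr6:26205001-26205016, plus strand: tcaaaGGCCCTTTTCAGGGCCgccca
The H2A, H2B and H3 genes shown open the stem with GGCTCT, and both H4 genes open it with GGCCCT. A match to the stem-loop within 100 bases after the stop codon was found in 29 of the 59 histone genes and in 4 of 19513 other protein-coding genes (0.0205%). Many annotated models of histone genes hold no 3′ UTR at all, so the absence of a match there says nothing about the gene. H4C3, the member with the most reads, has an annotated 3′ UTR of 51 bases without a match, and 18 of the last 20 bases of its model are A. Models with at least 15 A in the last 20 bases were found for 2 histone genes (H4C3 and H2BC8) and for 850 of 19625 other protein-coding genes (4.33%).

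Many H2A and H2B genes stand head to head and share the sequence between them. Within 1000 bases, 11 head-to-head pairs of histone members were found. They include H3C12 with H2BC17, an H3 with an H2B gene, and H2BC17 is also paired with H2AC17. H2BC4 and H2AC6 are the pair with the most reads, with start sites 219 bases apart in GENCODE 29. The 250 bases before the RefSeq start of H2AC6 (GRCh38.p14, chr6:26123922-26124171, plus strand) are shown because both genes read higher in every knockdown library, although neither passed the test. Capitals mark ATGCAAAT, which is the octamer ATTTGCAT read on the other strand, CCAAT on either strand, and TATAAA.
H2BC4 to H2AC6: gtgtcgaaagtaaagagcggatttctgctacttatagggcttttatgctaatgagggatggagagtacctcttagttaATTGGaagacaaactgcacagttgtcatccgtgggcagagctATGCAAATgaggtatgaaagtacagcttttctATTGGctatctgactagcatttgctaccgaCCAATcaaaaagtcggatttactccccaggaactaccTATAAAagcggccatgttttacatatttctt
RefSeq promoter entries of 300 bases matched 53 of the 59 histone genes, with 57 entries. The octamer, searched on both strands, was present in 10 of 14 H2A and 13 of 18 H2B entries, in 1 of 10 H3 entries and in none of 10 H4 entries. The H3 entry with the octamer is listed for H3C4 and covers the same bases as the entry of H2AC7. Of 35058 entries of other genes, 1.71% held the octamer. CCAAT, on both strands, was present in every H1, H2A, H2B and H3 entry and in 1 of 10 H4 entries, against 34.5% of other entries. TATAAA, also counted on both strands, was present in 71.9% of histone entries against 11.4%. These are letters in a window and were not tested as binding sites.

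Each library here is the sum of the cells of 1 arm and 1 batch, and held 71630108 to 84359044 reads in genes. Levels are CPM, a gene's read count scaled to the common library size that this unit uses, with effective library sizes from edgeR. Cells over 20% mitochondrial reads numbered 35 in control and 8 in knockdown. SULT2B1, the target, was counted 152, 109 and 332 times in control and 13, 21 and 0 times in knockdown (batches 1, 2 and 3), a log2 fold change of -4.13 (SE 1.43, edgeR adjusted p = 0.268). All 10 luminal prostate markers were tested, with a summed level of 7866 to 10219 CPM in control and 5225 to 8049 CPM in knockdown. Of these, 2 fell, KLK3 and KLK2, beside 0.384% of all genes tested, while KRT8 and KRT18 were higher in every knockdown library without passing. DESeq2 called 2 of the list higher and 4 lower, where it called 7.09% of all genes in either direction. The 9 markers of other cell types in the table summed to 5.31 to 13.7 CPM in control and 3.23 to 10.3 CPM in knockdown, and PTPRC was at 0 in every control library. Whether the batches came from separate cultures is not stated in the labels, and p-values here therefore reflect batch-to-batch spread, part of which may be technical.

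The arms differed more in the make-up of the histone reads than in their sum. All 59 histone genes together gave 1697, 1301 and 1246 CPM in control and 1262, 1223 and 948 CPM in knockdown. With all of them summed as 1 row of the table, the log2 fold change was -0.30 (SE 0.160, edgeR adjusted p = 0.489), and the arms overlapped. H4C3 alone held 67.7, 72.4 and 66.1% of the histone CPM in control and 22.7, 20.5 and 18.9% in knockdown. The other 58 histone genes together gave 547, 359 and 422 CPM in control and 976, 972 and 769 CPM in knockdown. Every knockdown library was thus lower in H4C3 and higher in the sum of the rest than every control library.

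Of the 59 histone genes, 43 passed the filter on low counts. That filter asks for enough reads in 3 libraries, so a gene could pass through 1 arm alone, and counts over the genes that passed describe them only. Among them, 2 rose (H2BC5 and H4C8) and 1 fell (H4C3) at an edgeR adjusted p of 0.05, and SLBP fell. Over all 20326 genes tested, 0.394% rose and 0.384% fell. Of the 43, 31 had a positive and 12 a negative log2 fold change, with a median of 0.89 beside 0.01 for all genes. Their median was also 0.89 with H4C12, which had no control read, set at its lower bound. The 3 knockdown libraries lay above all 3 control libraries for 18 of the 43 and below for 8, against 10.5% and 10.1% of all genes. Of the 20 histone genes averaging 5 CPM or more over the 6 libraries, 11 lay above and 4 below.

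**Figure D1:**
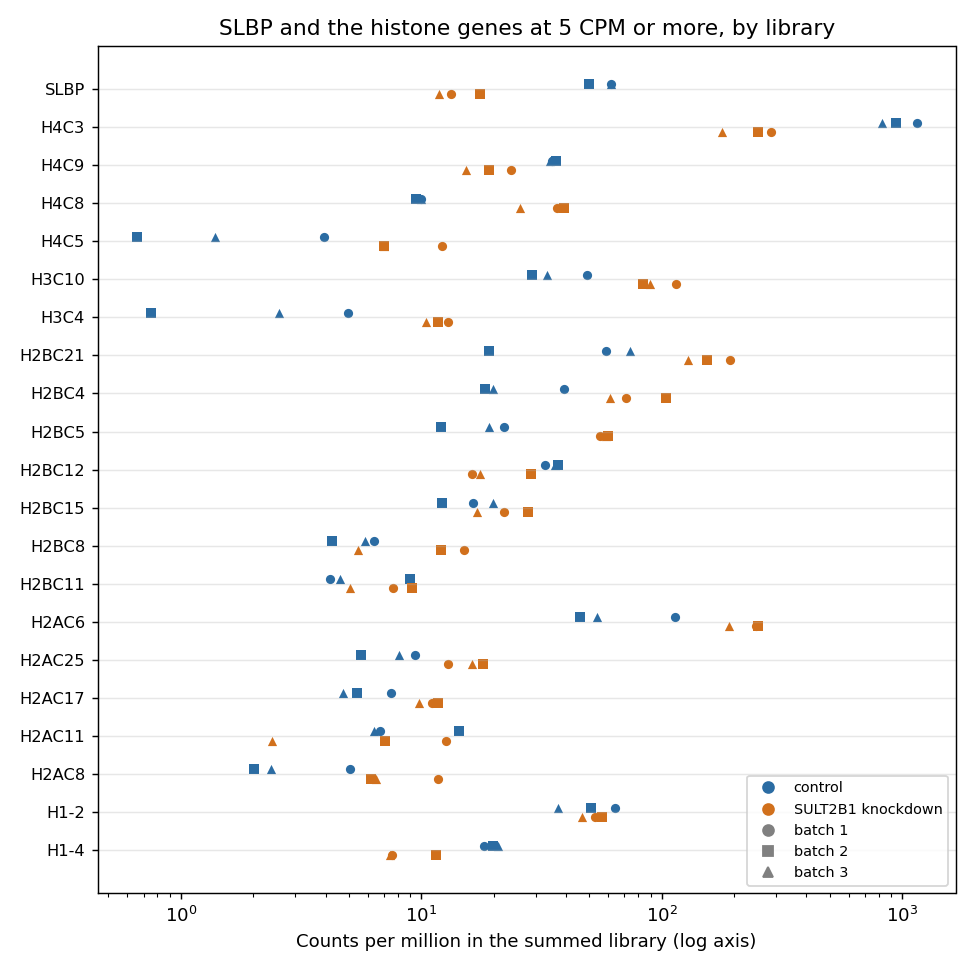
Level of SLBP and of the 20 histone genes averaging at least 5 CPM, in CPM on a log axis. Each point is 1 library, coloured by arm and shaped by batch. SLBP, H4C3, H4C9, H2BC12 and H1-4 lie lower in every knockdown library, and 11 genes of the H2A, H2B, H3 and H4 families lie higher.

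SLBP (ENSG00000163950, chr4:1692800-1712555, minus strand) was at 61.5, 50 and 61.5 CPM in control and at 13.3, 17.5 and 11.9 CPM in knockdown. The knockdown libraries lay far below every control library, with means of 14.3 ± 2.91 and 57.6 ± 6.66 CPM (SD, n = 3 libraries). The log2 fold change was -2.02 (SE 0.224, edgeR adjusted p = 0.0114), which is 4.04-fold lower. With batch as a replicate block the value was -2.03 and the edgeR adjusted p 0.0977, so the call was lost, while 0.187% of genes were called in that fit. It was also lost without control batch 1 (0.0668), control batch 3 (0.0623), knockdown batch 1 (0.0733) or knockdown batch 3 (0.0581), with log2 fold changes from -2.19 to -1.90 over the left-out libraries. None of the 1928 words of 50 bases in the SLBP model occurs in another gene's transcripts.

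H4C3 (ENSG00000197061, chr6:26103876-26104310, plus strand) encodes histone H4, as all 12 H4 members do. Its level was 1149, 942 and 824 CPM in control and 286, 251 and 179 CPM in knockdown. The groups did not overlap, and the lowest control library stood at 824 CPM beside 286 CPM in the highest knockdown library. The log2 fold change was -2.03 (SE 0.204, edgeR adjusted p = 0.00863), a level 4.07-fold lower, and the call held with batch as a replicate block (0.0122). It was lost only without knockdown batch 2 (0.0568). The coding sequences of the other 11 H4 genes share 79.6 to 83.5% of their bases with that of H4C3, and no word of 50 bases of the H4C3 model occurs in another gene's transcripts.

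Other H4 genes went both ways. H4C8 rose from 10, 9.49 and 9.96 CPM in control to 36.7, 39.2 and 25.8 CPM in knockdown, without overlap. The log2 fold change was 1.79 (SE 0.244, edgeR adjusted p = 0.0232), and the blocked adjusted p was 0.124. Leaving out any 1 library other than knockdown batch 3 also ended the call, with adjusted p-values of 0.103 to 0.113. H4C5 was at 3.95, 0.656 and 1.39 CPM in control and at 12.2, 6.99 and 7.03 CPM in knockdown, a log2 fold change of 2.13 (SE 0.695, edgeR adjusted p = 0.241) that did not pass. H4C9 was at 35.0, 36.3 and 34.5 CPM in control and 23.6, 19.2 and 15.3 CPM in knockdown. Its groups did not overlap either, and the value of -0.87 did not pass (SE 0.226, edgeR adjusted p = 0.148). The sum of the 11 H4 genes other than H4C3 was 55.6, 56.7 and 50.1 CPM in control and 80.4, 79.4 and 57.0 CPM in knockdown. The H4 family as 1 row fell by 1.72 on the log2 scale (SE 0.194, edgeR adjusted p = 0.0126), with 0.769% of the rows of that table called, and H4C3 made up 94.3 to 95.4% of it in control.

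H3 genes encode the histone whose tail carries many of the best-studied modifications. H3C10 had the most reads, at 49.0, 29 and 33.5 CPM in control and 115, 83.3 and 89.5 CPM in knockdown. Its groups did not overlap, and its log2 fold change of 1.37 stood just outside the threshold (SE 0.242, edgeR adjusted p = 0.0619). H3C4 was at 4.98, 0.752 and 2.56 CPM in control and at 12.9, 11.7 and 10.5 CPM in knockdown (log2 fold change 2.08, edgeR adjusted p = 0.215). All exonic bases of H3C4 are also annotated to another gene on the same strand, so its counts are uncertain. H3C2, which averaged 2.67 CPM, went the other way, at 4.27, 4.58 and 3.63 CPM in control and 1.06, 1.39 and 1.06 CPM in knockdown, with a value of -1.83 that did not pass (edgeR adjusted p = 0.155). Of the 6 H3 genes tested, 4 had a positive and 2 a negative log2 fold change. The H3 family as 1 row had a log2 fold change of 1.27 (SE 0.226, edgeR adjusted p = 0.0635).

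H2B genes were the family with the most members on the higher side, 11 of 12 tested. H2BC5 (ENSG00000158373, chr6:26158146-26171349, plus strand) rose from 22.2, 12.1 and 19.2 CPM to 55.3, 59.6 and 58.7 CPM. All 3 knockdown libraries were above 22.2 CPM, and the log2 fold change was 1.70 (SE 0.256, edgeR adjusted p = 0.0378). The call was lost with batch as a replicate block (0.135), with equal weight per cell (0.0687) and without any 1 of the 6 libraries (0.0565 to 0.145). H2BC21 was at 58.9, 19.2 and 73.8 CPM in control and 192, 154 and 129 CPM in knockdown, and its spread in control was wide (log2 fold change 1.65, SE 0.452, edgeR adjusted p = 0.166). H2BC4 was at 39.4, 18.4 and 19.8 CPM in control and 70.8, 104 and 61.2 CPM in knockdown (1.60, SE 0.355, edgeR adjusted p = 0.106). H2BC7, just below the 5 CPM level, had the largest value of the family, 3.35 (SE 0.728, edgeR adjusted p = 0.103), from 1.69, 0.301 and 0.683 CPM to 12.6, 9.39 and 5.32 CPM.

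Not all H2B genes lay higher. H2BC12 was at 32.7, 37.1 and 36.1 CPM in control and 16.2, 28.7 and 17.5 CPM in knockdown (-0.76, SE 0.269, edgeR adjusted p = 0.278), and 74.1% of its words of 50 bases occur in other genes. H2BC15 and H2BC11 overlapped between arms. H2BC15 was at 16.4, 12.2 and 19.8 CPM in control and 22.1, 27.7 and 17.0 CPM in knockdown. H2BC11 was at 4.18, 8.97 and 4.59 CPM in control and 7.63, 9.18 and 5.04 CPM in knockdown. H2BC8 was at 6.38, 4.24 and 5.85 CPM in control and 15.0, 12.1 and 5.45 CPM in knockdown, where batch 3 fell inside the control range. The H2B family as 1 row had a log2 fold change of 1.21 (SE 0.213, edgeR adjusted p = 0.0617).

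H2AC6 had the most reads of the H2A genes and, after H4C3, of all histone members. It was at 114, 45.7 and 54.1 CPM in control and at 247, 251 and 190.3 CPM in knockdown, and the groups did not overlap. Its log2 fold change of 1.69 did not pass (SE 0.348, edgeR adjusted p = 0.0930), and without control batch 1 it was 2.19 and did pass (0.0202). H2AC25 was at 9.38, 5.61 and 8.05 CPM in control and 12.9, 18.0 and 16.3 CPM in knockdown (1.04, SE 0.313, edgeR adjusted p = 0.200). H2AC17 was at 7.48, 5.39 and 4.74 CPM in control and 11.1, 11.7 and 9.76 CPM in knockdown (0.89, edgeR adjusted p = 0.288), with 88.0% of its exonic bases also annotated to another gene. H2AC8 was at 5.06, 2.01 and 2.37 CPM in control and 11.7, 6.21 and 6.48 CPM in knockdown (1.37, edgeR adjusted p = 0.304). H2AC11 overlapped between arms, at 6.76, 14.4 and 6.36 CPM in control and 12.7, 7.10 and 2.39 CPM in knockdown. The H2A family as 1 row had a log2 fold change of 1.45 (SE 0.282, edgeR adjusted p = 0.0796).

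Of the head-to-head pairs, 7 had both genes tested, and in 5 both had log2 fold changes of the same sign, all positive. In H2BC4 and H2AC6 they were 1.60 and 1.69, and in H2BC8 and H2AC8 0.98 and 1.37. H2BC21 and its neighbour H2AC20 differed in sign, at 1.65 and -0.97, with H2AC20 averaging 0.345 CPM. H2BC11 and H2AC11 also differed in sign, at 0.30 and -0.31. None of these pairs was tested as a pair.

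In the summed libraries, no linker histone gene lay higher without overlap. H1-4 was at 18.2, 19.9 and 20.8 CPM in control and 7.55, 11.5 and 7.44 CPM in knockdown, without overlap (-1.16, SE 0.283, edgeR adjusted p = 0.130). H1-5 was at 7.23, 2.39 and 7.10 CPM in control and 0.999, 2.16 and 0.455 CPM in knockdown (-2.21, SE 0.747, edgeR adjusted p = 0.255). H1-2, with the most reads of the H1 genes, was at 64.2, 51.0 and 36.9 CPM in control and 52.6, 56.7 and 46.8 CPM in knockdown. Its value of 0.04 (SE 0.229, edgeR adjusted p = 0.972) changed sign when some libraries or cells were left out. The H1 family as 1 row had a log2 fold change of -0.29 (SE 0.181, edgeR adjusted p = 0.578).

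The 16 histone genes left out by the filter had 1 to 89 reads each over all cells, and 22 of the 59 had a read in fewer than 20 cells. H4C12 had 0 reads in control and 107 in knockdown, at least 33.4-fold higher when control is set at 3 reads over the arm, but all of its words of 50 bases occur in another gene and 7 cells held the reads. H4C4 had 6.13 CPM in control batch 2 and at most 0.630 CPM in any other library, and only 4 cells held its reads. H2AC4 was at 0.218, 0.479 and 0.528 CPM in control and 0.0499, 0 and 0.0584 CPM in knockdown. These low genes rest on few cells and were not past the threshold.

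DESeq2, run on the same summed counts, called 16 of the 44 members tested, 10 higher and 6 lower, where it called 7.09% of all genes tested. The higher ones were H2AC25, H2AC6, H2BC21, H2BC4, H2BC5, H2BC7, H3C10, H3C4, H4C5 and H4C8. The lower ones were H1-4, H1-5, H3C2, H4C3, H4C9 and SLBP. All 21 members named by level (the 20 histone genes and SLBP) had the same direction in both tools.

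**Figure D2:**
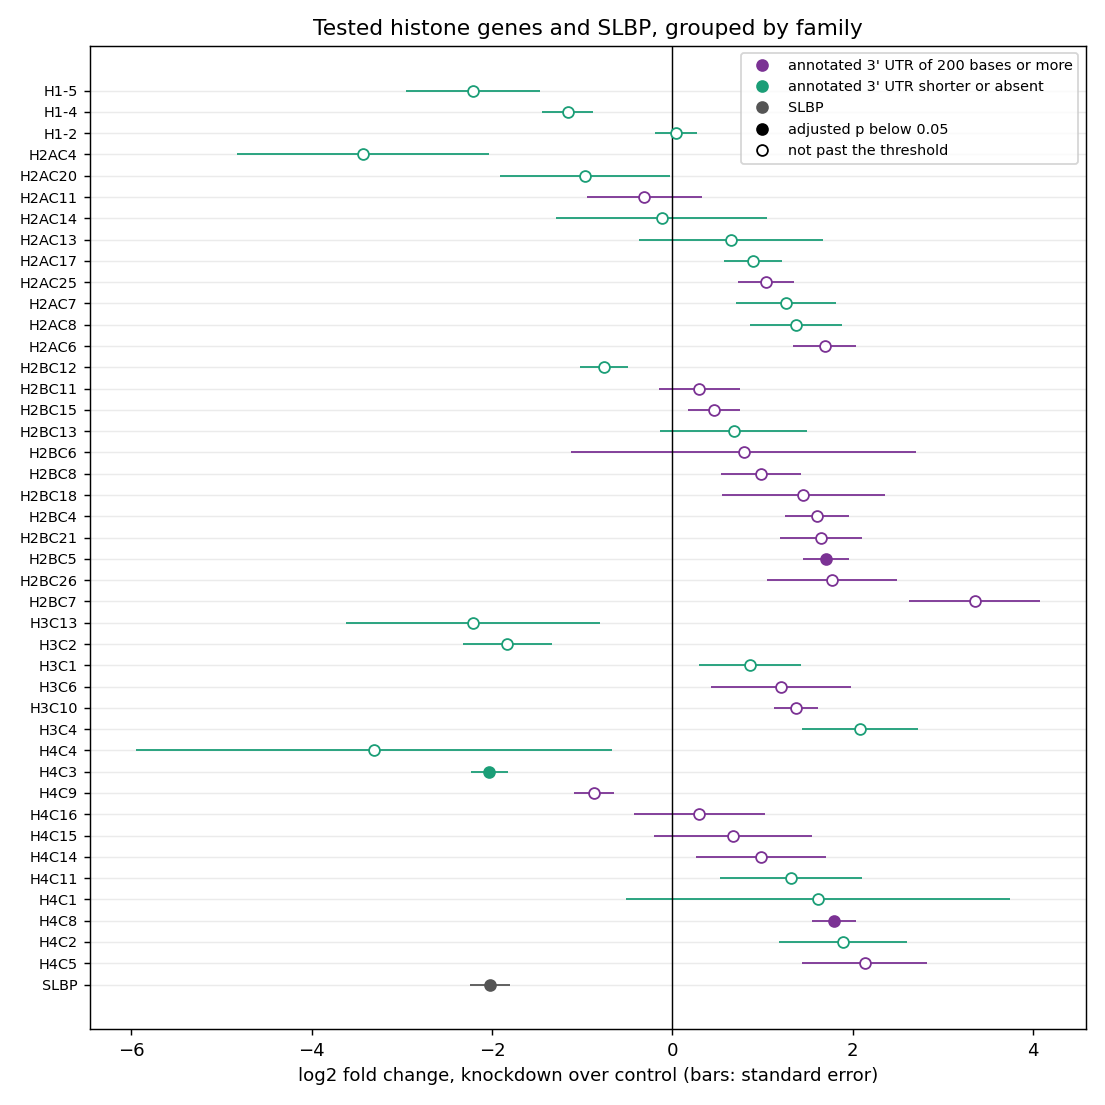
Log2 fold change of knockdown over control with its standard error for SLBP and the tested histone genes except H4C12, which had no control read. Filled points passed an adjusted p of 0.05, and colour marks the length of the annotated 3′ UTR. SLBP and H4C3 stand near -2, and most genes with a long 3′ UTR stand to the right of 0.

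Genes on the higher side were mostly those annotated with a long 3′ UTR. Of the 21 tested histone genes with an annotated 3′ UTR of at least 200 bases, 19 had a positive log2 fold change, and their median was 1.20. Of the 22 without one, 12 had a positive value, and their median was 0.35. Among the 20 genes at 5 CPM or more, 13 had such a long 3′ UTR, with a median of 1.37, and 7 did not, with a median of 0.04. The 2 exceptions among the long models were H2AC11, at -0.31, and H4C9, at -0.87, which has 212 bases after its stem-loop. A long model need not hold the stem-loop: none was found in the long models of H2BC5, H2BC4 and H2BC11, and the other models of H2BC5 and H2BC4 run on for 39 and 116 bases after it. Only annotated models were compared, since gene counts do not show which transcript a read came from, and the difference between these sets was not tested. Genes with fewer than 10% of their words of 50 bases in other genes were 17 of the 20 and had a median of 1.04.

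Per cell, SLBP had a read in 59 of 76, 58 of 66 and 56 of 67 control cells (77.6, 87.9 and 83.6%). In knockdown it had a read in 30 of 66, 36 of 65 and 38 of 61 cells (45.5, 55.4 and 62.3%). The exact Clopper-Pearson intervals at 95% were 66.6 to 86.4%, 77.5 to 94.6% and 72.5 to 91.5% in control, and 33.1 to 58.2%, 42.5 to 67.7% and 49.0 to 74.4% in knockdown. The intervals count cells and not reads, since amplified reads without molecular identifiers are not independent molecules. They describe only the sampling of cells within a library, and cells of the same library are not replicates. They leave out how the share varied between batches. Over batches this averaged 83.0 ± 5.15% for control and 54.4 ± 8.47% for knockdown (SD, n = 3 batches, exact permutation test, two-sided, p = 0.1, the smallest that 3 against 3 allows). At an equal depth of 100000 reads per cell these became 63.4 ± 7.28% and 35.2 ± 10.1%.

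Cells with an SLBP read held less of it in knockdown. Among cells with a read, the median was 40.6, 26.3 and 25.8 CPM in control and 6.82, 6.43 and 7.90 CPM in knockdown. The reads were also more concentrated: the top 10% of cells held 52.4, 43.0 and 51.3% of the SLBP reads in control and 78.2, 81.8 and 64.5% in knockdown. In the summed libraries alone, fewer cells with an SLBP read and less SLBP per cell cannot be told apart. Per cell, both the share and the level were lower. A lower level alone also leaves fewer cells with a read, so these are not separate findings.

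H4C3 was read in 388 of the 209 control and 192 knockdown cells, so its difference lay in level. The median cell held 247, 419 and 347 CPM in control and 65.7, 97.7 and 118 CPM in knockdown. The upper end differed more: 1 cell in 10 was above 3704, 2841 and 3325 CPM in control and above 388, 383 and 468 CPM in knockdown. Both the median and this upper level were lower in every knockdown library than in every control library. At the lower end the arms overlapped, with 10th percentiles of 20, 84.0 and 105 CPM in control and 1.40, 13.2 and 38.3 CPM in knockdown.

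H4C8 and H2BC5 were read in more cells after knockdown. H4C8 had a read in 34.2, 27.3 and 40.3% of control cells and in 66.7, 73.8 and 73.8% of knockdown cells (exact permutation p = 0.1, two-sided, n = 3 batches). H2BC5 had one in 60.5, 62.1 and 68.7% of control cells and in 92.4, 84.6 and 83.6% of knockdown cells (exact permutation p = 0.1, two-sided, n = 3 batches). These shares did not overlap between arms, nor did they after thinning to 100000 reads, with means of 22.9 ± 2.80% and 58.7 ± 4.05% for H4C8. Of the 20 histone genes at 5 CPM or more, 10 had a higher share of cells in every knockdown batch than in any control batch, and 0 had a lower one. Over all genes tested, 15.3% had such a higher and 5.85% such a lower share. These counts hold for all reads and all cells. Without cells over the mitochondrial limit, H1-4 (means 91.9% in control and 73.3% in knockdown), H2BC12 (96.6 and 88.1%) and H4C9 (96.6 and 91.9%) were lower without overlap. H4C8 (39.7 and 73.9%) and H2BC5 (71.4 and 87.6%) stayed higher there. Thinned to 100000 reads, H4C9 was also lower without overlap (74.3 and 62.5%). For H4C3 the shares overlapped between arms (p = 0.8, exact permutation test). No such test on 3 against 3 batches can reach 0.05.

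**Figure D3:**
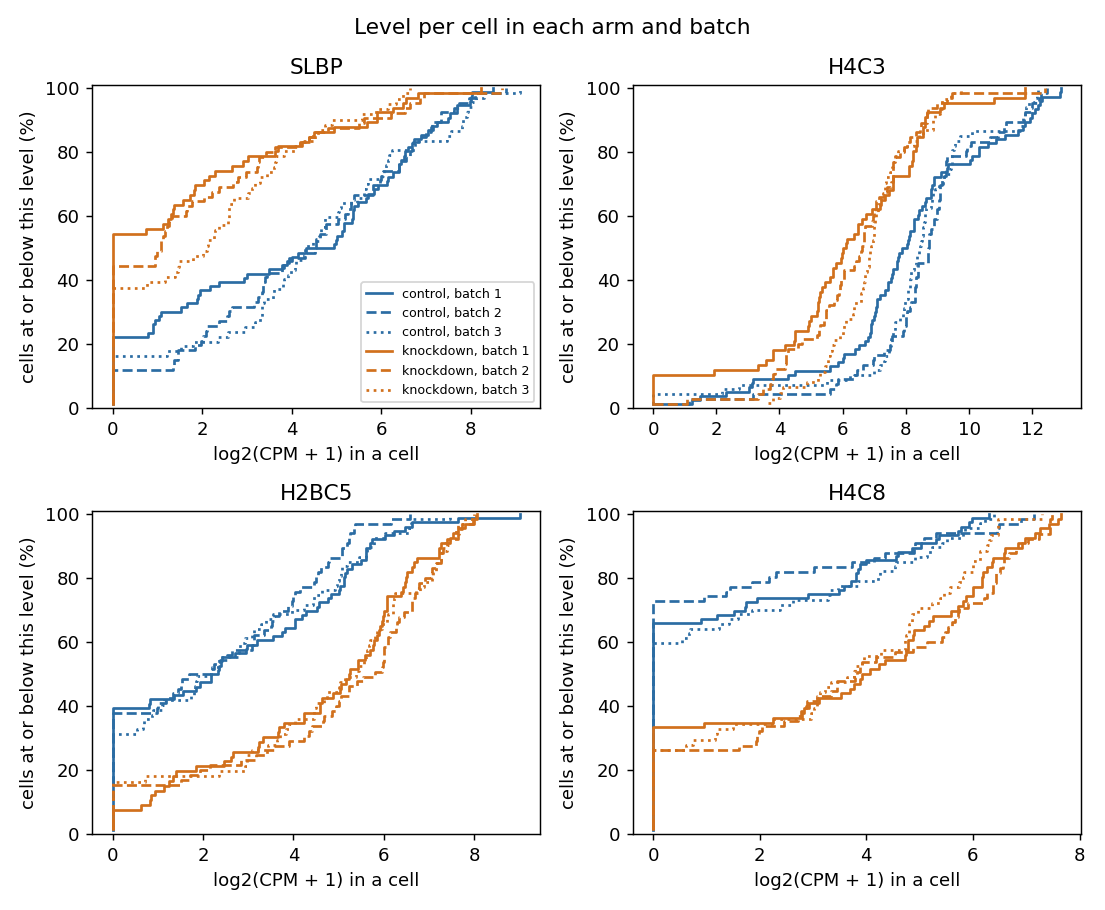
Cumulative share of cells, in percent, at or below each level of SLBP, H4C3, H2BC5 and H4C8, in log2(CPM + 1), with 1 line for each arm and batch. Where a line meets the left edge it gives the share of cells without a read. The knockdown lines lie to the left for SLBP and, above the lowest levels, for H4C3, and to the right for H2BC5 and H4C8.

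A knockdown cell held reads of more histone genes than a control cell. The mean number of the 59 histone genes with a read was 14.7, 13.1 and 14.3 per control cell and 18.2, 19.0 and 18.0 per knockdown cell in batches 1, 2 and 3. No cell of either arm had none. With at least 5 reads asked for, the means over batches were 9.93 ± 0.677 and 13.7 ± 0.416 (SD, n = 3 batches). After thinning to 100000 reads they were 8.91 ± 0.735 and 12.5 ± 0.737, so the arms stayed apart at equal depth. Without cells over the mitochondrial limit the arms came closer, at 17.6, 13.9 and 14.9 in control and 19.2, 19.0 and 18.3 in knockdown. Over all genes, the median cell had reads of 8573.5, 8745.5 and 8607 genes in control and 8927.5, 8643 and 9045 in knockdown.

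In batch 1, control cells with an SLBP read held reads of 15.1 histone genes on average and those without held 13.6. The values were 13.1 and 12.6 in batch 2 and 14.9 and 11.3 in batch 3. In knockdown cells they were 19.2 and 17.3, 18.4 and 19.8, and 18.0 and 17.9. Only 8 to 17 control cells per batch lacked an SLBP read. After thinning to 100000 reads, control cells with SLBP held fewer histone genes in batch 2 (7.70 against 8.62) and more in batches 1 and 3. Of the 20 histone genes at 5 CPM or more, 5 were read more often in cells with SLBP in all 3 control batches and 0 less often, beside 12.2% and 8.82% of the 10479 genes at that level. Those 5 were H2AC6, H2AC8, H2AC11, H2AC17 and H4C8. In all 3 knockdown batches 1 gene, H1-4, was read more often and 0 less often, beside 15.6% and 4.84%. At the equal depth of 100000 reads, of those 5 only H4C8 was still read more often in all control batches. In control H4C8 was then the 1 gene read more often (11.8% of genes at that level), and 2 genes, H2AC25 and H2BC21, less often (8.70%). In knockdown H3C10 was then read more often (16.8%), and 4 genes, H2AC6, H2AC8, H3C4 and H4C9, less often (7.76%). H4C9 had the largest of these differences, a mean of -23.5 percentage points over the knockdown batches. Before thinning, H4C8 was read in 40.7, 29.3 and 42.9% of control cells with SLBP and in 11.8, 12.5 and 27.3% of those without. Across cells of a library, Spearman's rho between SLBP and any of the 20 genes lay between -0.34 and 0.31 in sparse counts. With H4C3 it was positive in every library, at 0.26, 0.08 and 0.17 in control and 0.15, 0.31 and 0.08 in knockdown. H2BC8 was also positive in each, at 0.01 to 0.19. These values are small and were not tested, and no relation is read from them.

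H4C3 followed the S phase genes across cells in every library and H1-4 in all but knockdown batch 3, while H2AC6 and H2BC21 ran the other way. The S phase level of a cell was taken as its mean log2(CPM + 1) over 40 S phase genes outside the histones. Within a library, Spearman's rho of H4C3 with that level was 0.78, 0.66 and 0.72 over the control cells of batches 1, 2 and 3 and 0.62, 0.47 and 0.42 over the knockdown cells. H1-4 had 0.58, 0.31 and 0.48 in control and 0.49, 0.22 and 0.01 in knockdown. H2AC6 had -0.25, -0.27 and -0.44 in control and -0.31, -0.15 and -0.29 in knockdown, and H2BC21 had -0.26, -0.16 and -0.45, and -0.27, -0.34 and -0.17. SLBP had 0.37, 0.24 and 0.27 in control and 0.21, 0.11 and 0.06 in knockdown. These are descriptions over 61 to 76 cells, which share a library and a total that the CPM is scaled to.

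The S phase genes themselves were lower in knockdown cells, so the arms differ in the very level that H4C3 follows. Cells of both arms together were therefore also ranked by that level and cut into 3 bins of equal size, a choice made after the data had been seen. The highest bin held 99 control and 35 knockdown cells, the middle bin 46 and 87, and the lowest bin 64 and 70. The S phase level within a bin was not compared between arms, so the cells of a bin need not be equal in it. Over all cells of a library, its 90th percentile was 5.90, 5.45 and 5.62 in control and 4.26, 3.59 and 5.20 in knockdown. In each bin, and within all 3 batches, knockdown cells held less H4C3. Mean log2(CPM + 1) was 9.80 ± 0.58 in control and 8.67 ± 0.36 in knockdown in the highest bin, 7.51 ± 0.05 and 6.45 ± 0.15 in the middle bin, and 6.70 ± 0.89 and 5.30 ± 1.06 in the lowest (SD, n = 3 batches). SLBP differed by -2.24, -1.75 and -1.65 from the highest to the lowest bin, also in all 3 batches.

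Of the genes on the higher side, H2AC6, H2BC5, H2BC21 and H4C8 were compared in these bins, and each differed least in the highest bin. H2AC6 differed by 2.04 in the highest, 3.21 in the middle and 2.83 in the lowest bin, in all 3 batches each. H2BC5 differed by 0.41 in the highest bin, where 2 of 3 batches were higher and the mean share of cells with a read was 67.9% in knockdown and 72.3% in control, and by 2.45 and 2.82 in the others, where all 3 were. H2BC21 differed by 2.34 in the highest bin and by 2.93 in each of the others, in all 3 batches each. H4C8 differed by 1.03, 2.31 and 2.33 in the highest, middle and lowest bin, higher in all 3 batches each time. Some bins of a library held as few as 9 cells, and none of these differences was tested.

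**Figure D4:**
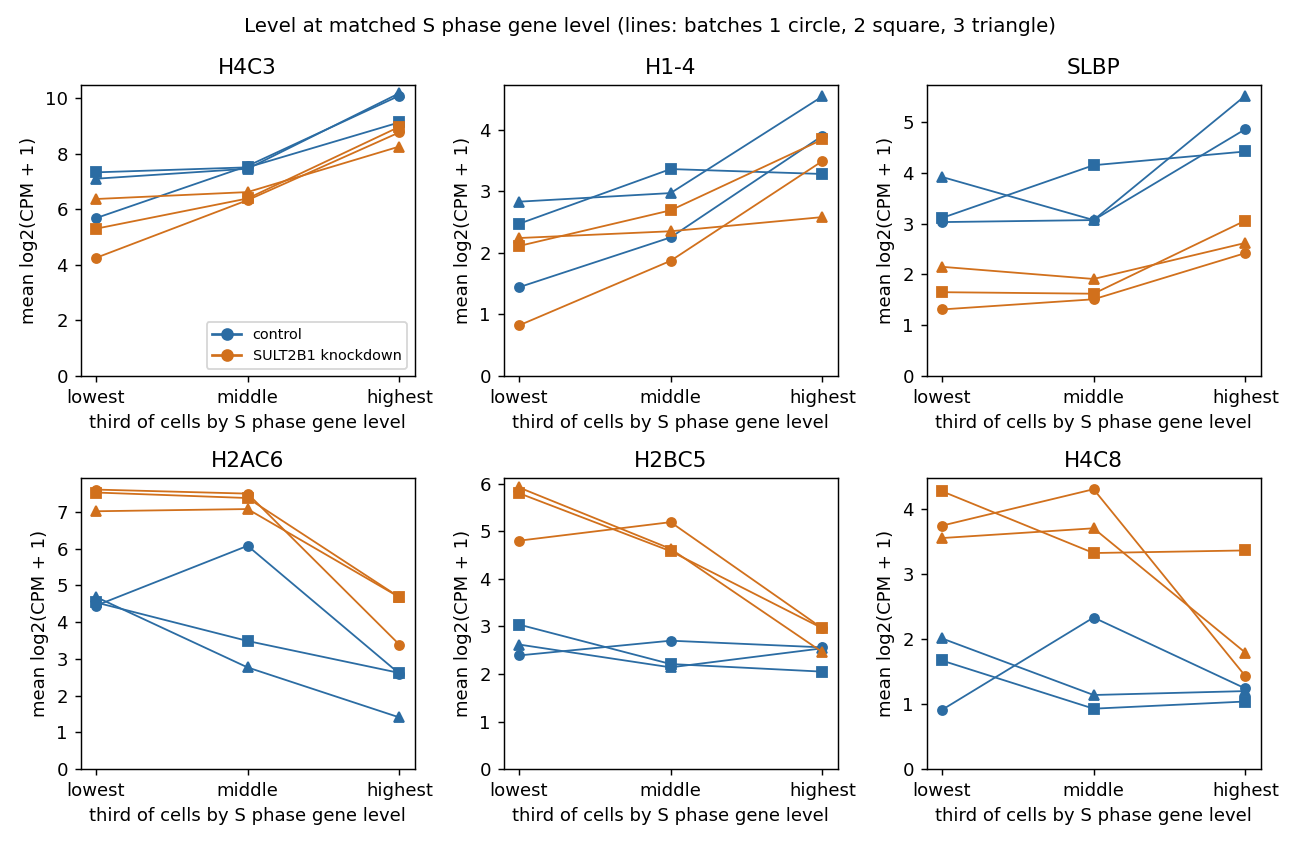
Mean log2(CPM + 1) of H4C3, H1-4, SLBP, H2AC6, H2BC5 and H4C8 in cells of the lowest, middle and highest bin of S phase gene level, with 1 line for each arm and batch. H4C3 and SLBP lie lower and H2AC6 higher in knockdown cells of every bin, while H2BC5 differs by only 0.41 on average in the highest bin.

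The histone genes moved in separate groups across cells. H4C3 and H1-4 had a median rho of 0.58 over the control batches and 0.49 over the knockdown batches. H2BC21 and H4C3 had -0.27 and -0.51, and H2BC5 and H4C3 0.02 and -0.51. H2AC6 and H2BC5, on different promoters, had 0.16 in control and 0.57 in knockdown, while the head-to-head pair H2AC6 and H2BC4 had 0.48 and 0.49. The highest value of any pair was that of H2BC12 and H4C9, 0.75 in control and 0.74 in knockdown, with 0.54 to 0.80 over the 6 libraries. Their annotated exons do not overlap, and 6537 bases lie between the genes on chromosome 6. Thinned to 100000 reads, that pair had 0.60 and 0.44.

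**Figure D5:**
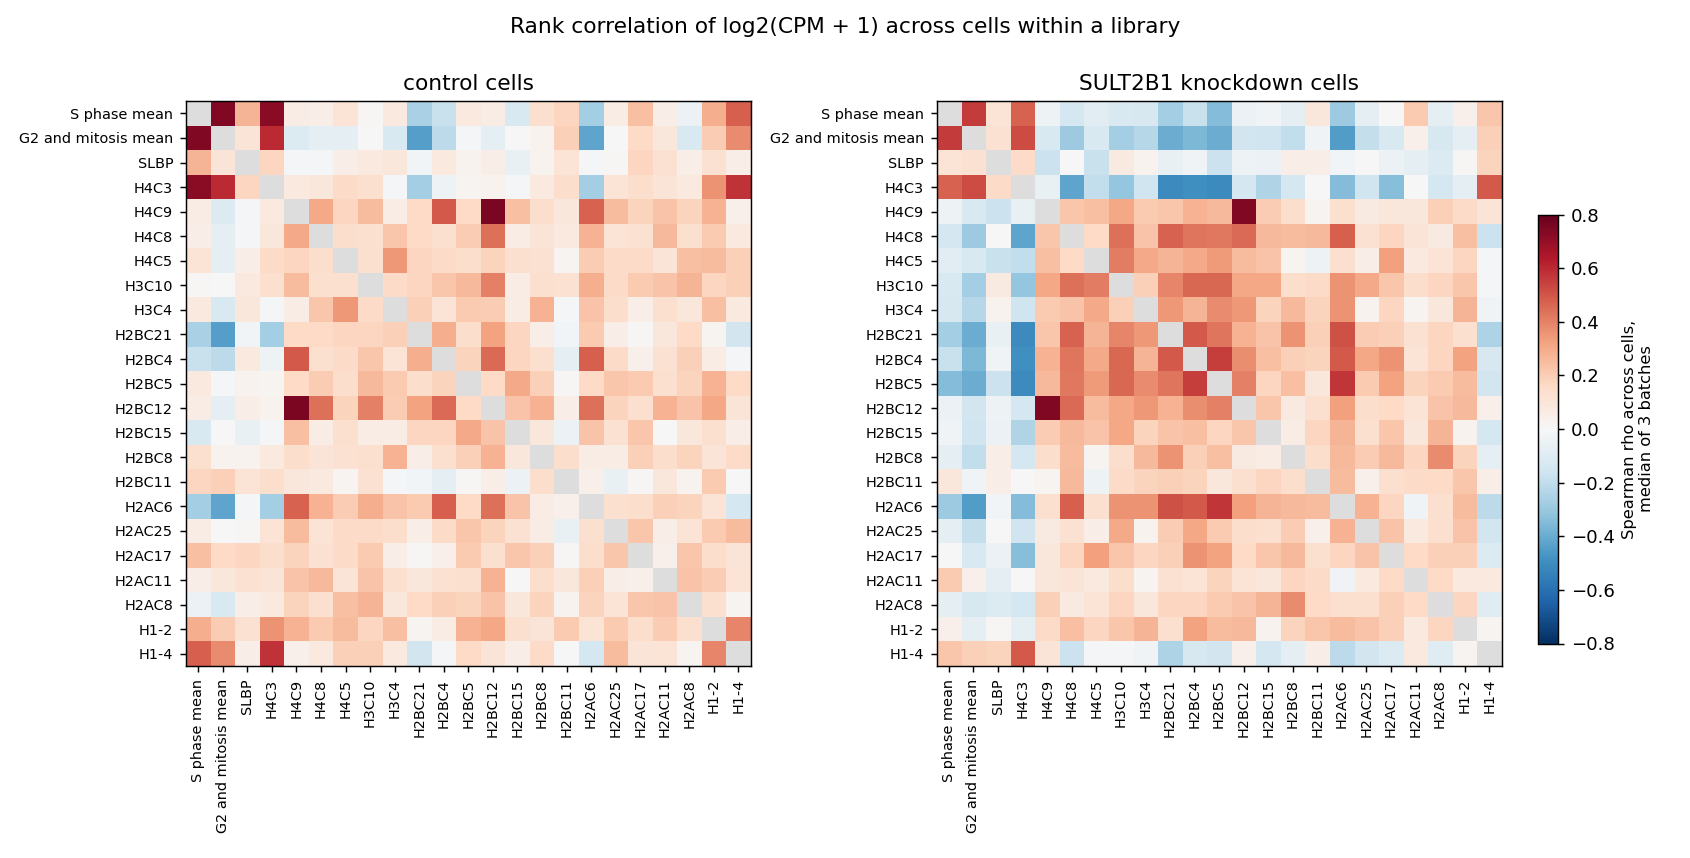
Spearman's rho of log2(CPM + 1) between pairs of genes across the cells of a library, as the median of 3 batches, for control cells on the left and knockdown cells on the right. The first rows are the mean levels of the S phase and of the G2 and mitosis genes. H4C3 and H1-4 go with both means in control. Among H2AC6, H2BC4, H2BC5, H2BC21, H3C10 and H4C8, pairs such as H2AC6 and H2BC5 have higher median values in knockdown, while H2AC6 and H2BC4 barely differ (0.48 and 0.49).

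Around the histone genes, the machinery that makes and processes their mRNAs held no gene past the threshold, 0 of 29 tested. At an unadjusted edgeR p below 0.05, 1 was higher and 5 were lower, beside 6.40% and 7.08% of all genes tested. DESeq2 called 1 of them, ERI1, lower, where it called 7.09% of all genes in either direction. NPAT, which switches on histone genes at the start of S phase, was at 51.5 ± 1.60 CPM in control and 37.8 ± 6.85 CPM in knockdown (SD, n = 3 libraries). ERI1, a nuclease that trims the stem-loop end, was at 45.9 ± 2.65 and 26.8 ± 5.90 CPM (log2 fold change -0.78, edgeR adjusted p = 0.162). LSM10 and LSM11, the proteins particular to the U7 particle, had log2 fold changes of 0.10 and -1.11, ZNF473, which binds that particle, 0.82, and CASP8AP2, a partner of NPAT, -0.58. The median of this list was 0.02.

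Among the 12 replication-independent variants, which are made also outside S phase, mostly from polyadenylated mRNAs, 0 passed, with 1 higher and 4 lower at an unadjusted edgeR p below 0.05 (6.40% and 7.08% of all genes). DESeq2 called 1 of them, H2AX, lower, where it called 7.09% of all genes in either direction. The median of the variants was -0.35. H3-3B was at 1573 ± 127 CPM in control and 1896 ± 159 CPM in knockdown (SD, n = 3 libraries), and H3-3A had a log2 fold change of -0.82. H2AZ1 was at 2067 ± 363 and 1547 ± 295 CPM. H2AX, the variant marked at DNA breaks, was at 12.9 ± 3.95 and 5.02 ± 0.477 CPM (-1.36, edgeR adjusted p = 0.137), and H1-10 had a log2 fold change of -0.30. Of 21 histone chaperones 1 fell, beside 0.384% of all genes tested. It was SUPT16H, a subunit of the FACT complex that moves histones during transcription and replication (-1.19, SE 0.163, edgeR adjusted p = 0.0257). At an unadjusted edgeR p below 0.05, 0 chaperones were higher and 6 lower, and DESeq2 called 3 lower. CHAF1A and CHAF1B, which deposit new histones behind the replication fork, had values of -1.10 and -0.81, ASF1B -0.81 and NASP -0.26, and the median of the list was -0.26. CHAF1B is also among the S phase genes below.

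Of the 40 S phase genes outside the histones 1 fell, beside 0.384% of all genes tested. It was RRM2, a subunit of the enzyme that makes deoxynucleotides (-1.98, SE 0.270, edgeR adjusted p = 0.0251). Of the 40, 37 had a negative value, with a median of -0.89. DESeq2 called 24 of the S phase genes lower, where it called 7.09% of all genes in either direction. The summed level of the 40 was 2180.4 to 3117 CPM in control and 1265 to 1684 CPM in knockdown. PCNA, the clamp of the replication fork, was at 298 ± 40 CPM in control and 180.3 ± 29.1 CPM in knockdown (SD, n = 3 libraries). Of 20 G2 and mitosis genes 0 passed, with 14 lower at an unadjusted edgeR p below 0.05 (7.08% of all genes), 11 called lower by DESeq2, all 20 negative and a median of -1.37. TOP2A was at 182 ± 59.8 and 29.6 ± 23.4 CPM and MKI67 at 110.2 ± 28.4 and 31.1 ± 16.5 CPM. The part of these cell cycle differences in the histone and SLBP levels was not tested.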

How the data were processed

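The authors deposited raw whole-number read counts, 1 column per cell. The submitters' processing notes name build GRCh38.p3 and, as tools, TopHat2 (2.1.0), edgeR (3.2.2), HTSeq (0.6.1) and FastQC (0.11.3). The sources used here give neither the annotation release nor the strand setting. Per the labels' protocols, capture sites with 0 or several cells and cells stained as dead were left out under the microscope; no doublet caller was run. Reads of near-identical histone genes may be dropped or assigned to a copy. Single cells of the 2 arms with a matching column were used (209 control, 192 knockdown, of 414 samples listed), and 4 columns of values were not. Names of 34891 genes came from the name table and 257 from GENCODE 29; 3 members were matched through RefSeq synonyms. Histone symbols without a row in the table were not analysed here, and 8 pseudogenes were left out.

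Each arm and batch was summed to 1 library. The test was edgeR 4.0.16 quasi-likelihood (limma 3.58.1, R 4.3.3) with TMM scaling, filterByExpr with a minimum count of 10, robust dispersions, without covariates, and Benjamini-Hochberg adjustment across the 20326 genes tested; family sums replaced their members in refits of the whole table. The labels' batch number is shared by the arms and so pairs the libraries, with correlations of deviations of 0.0551, -0.00369 and -0.0019. Alternatives were DESeq2 1.42.0, RLE scaling, no filter, batch as a block, equal weight per cell, leaving out cells over 20% mitochondrial reads, and leaving out each library. Every member averaging at least 5 CPM over the 6 libraries or past the threshold is named, and so is SLBP. Some members below that level, such as H2BC7, H3C2 and H1-5, are also named, without a fixed rule. Per cell, log2(CPM + 1) was used, with thinning to 100000 reads; Python 3.11.15 ran pandas 2.3.3, scipy 1.17.1, matplotlib 3.10.9 and numpy 2.4.6. The fit and the thinning were tested on simulated data. The members and lists were chosen with earlier results of these data known.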

Additional observations from a re-analysis of the deposited data

How the results depend on the processing

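The number of genes called moved most with the method: DESeq2 called 1442, no filter on low counts 309, batch as a replicate block 38, and leaving out 1 library 46 to 69, beside 158. Members called numbered 4 (2 higher, 2 lower), against 16 with DESeq2 (10 and 6), 7 with no filter (5 and 2), 1 with the replicate block (0 and 1), 1 higher with equal weight per cell (H4C8), and 1 to 2 without 1 library (0 to 1 higher, 1 to 2 lower). With the replicate block SLBP stood at -2.03 without passing, and the block also ended the calls of H4C8 and H2BC5. DESeq2 put SULT2B1 past the threshold at -4.14, and the H2A, H2B and H3 families at 1.45, 1.22 and 1.27. Without the filter these families passed at 1.45, 1.21 and 1.27, and H2B passed at 1.23 without cells over the mitochondrial limit. Leaving out 1 library gave -2.19 to -1.90 for SLBP, -1.86 to -1.56 for the H4 family and 1.28 to 1.83 for the H2A family, which passed only without control batch 1. The H4 family call was lost without control batch 1, control batch 2 or knockdown batch 2. The gain in histone genes per cell was 3.37 without cells over the mitochondrial limit, beside 4.37.

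H1-2 changed sign, to -0.01 without those cells, and ranged from -0.15 to 0.23 without 1 library, negative without control batch 3 or knockdown batch 2. H2AC11 ranged from -0.95 to 0.18, positive without control batch 2 or knockdown batch 3. In shares of cells, the difference for H2AC11 (1.31 percentage points) turned to -0.684 at 5 reads or more and to -1.50 without cells over the mitochondrial limit, and ranged from -3.67 to 4.62 without 1 library. That for H4C3 ranged from -3.64 to 1.67, positive only without knockdown batch 1. That for H4C9 (0.51) turned to -11.8 when thinned, -2.98 at 5 reads and -4.74 without cells over the mitochondrial limit, and ranged from -0.868 to 1.23. How far depth limits the members read in few cells was not tested.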
